A study of Caenorhabditis elegans with 48 samples.

Results

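The respiratory chain of *C. elegans* is built from proteins of 2 genomes, and the mRNAs of both were followed here by RNA-seq over 1 day in adult worms. The genes were 48 listed subunit genes of complexes I to V and cytochrome *c*, picked by name from 19885 genes in the deposited tables, of which 12 lie on the mitochondrial genome and 36 in the nucleus. All 48 passed the filter on low values (0.25 TPM or more as the mean over all libraries, where TPM is the share of a library's transcripts, per length, scaled to 1000000), as did 13813 genes in all.

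All animals were adults of strain JDW259, and RNA was taken from the whole body. Per the paper, they were entrained by cycles of warm and cold and kept on plates with FUdR to eliminate offspring. They were then sampled under constant cold. The strain carries TIR1, the auxin receptor, under the *eft-3* promoter, and an auxin-inducible degron tag on the endogenous *nhr-23*, the worm homolog of the mammalian ROR nuclear receptors. Mock and K-NAA animals shared both alleles and were moved to new plates 12 h before sampling, with the auxin analog K-NAA (0.4 mM per the labels) in the plates of the second group only. Sampling ran from CT1 to CT23 (CT, circadian time in hours) at 12 time points, 2 h apart, with 2 replicates of each condition, which gave 24 mock and 24 K-NAA libraries. There was no strain without the degron, so an effect of K-NAA itself and an effect of NHR-23 loss cannot be told apart.

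Complexes I, III and IV of the inner mitochondrial membrane pass electrons from NADH to oxygen and pump protons, complex II feeds electrons in from succinate without pumping, cytochrome *c* carries electrons from complex III to complex IV, and complex V (ATP synthase) uses the proton gradient to make ATP. Complex II and cytochrome *c* are wholly nuclear encoded, whereas the other complexes join nuclear subunits, made in the cytosol and imported, to subunits made on mitochondrial ribosomes. In animals the mitochondrial genome is transcribed by its own polymerase into long precursors from which the single mRNAs are cut, so the mRNA supply of the 2 genomes rests on separate machineries.

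In the RefSeq annotation of WBcel235 all 48 genes were found. The 12 mitochondrial genes all lay on the same strand, in the order *nduo-6*, *ndfl-4*, *nduo-1*, *atp-6*, *nduo-2*, *ctb-1*, *ctc-3*, *nduo-4*, *ctc-1*, *ctc-2*, *nduo-3* and *nduo-5*. *nduo-1* and *atp-6* overlapped by 5 bases and *nduo-3* and *nduo-5* by 1 base. The nuclear genes were spread over all chromosomes, with 10 on chromosome I, 9 on III, 6 on X, 4 each on IV and V and 3 on II.

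Within the mitochondrial genome the levels ran over 2 orders of size. *ctc-1*, encoding the catalytic subunit of complex IV, was the most abundant of the 12 in mock animals at 729 ± 78.8 TPM (SD, n = 24). It was followed by *ctc-2* at 632 ± 98.0 TPM. *ctb-1* (cytochrome *b* of complex III) stood at 502 ± 69.8 TPM, *ctc-3* at 395 ± 71.0 TPM and *atp-6* (subunit a of complex V) at 351 ± 86.0 TPM. These SDs are over libraries, and differences between genes within a library were not tested. Of the 7 complex I genes only *nduo-1*, at 245 ± 37.3 TPM, and *nduo-4*, at 147 ± 21.96 TPM, were above 100 TPM. *nduo-5* had 93.7 ± 13.3 TPM and *nduo-6* 36.2 ± 12.2 TPM, while *nduo-3*, at 8.45 ± 2.74 TPM, and *nduo-2*, at 4.27 ± 1.57 TPM, were low. The shortest gene, *ndfl-4*, encoding the small ND4L subunit, ranged from 0 to 15.1 TPM in mock with a median of 3.40 TPM and was listed at 0 in 7 of the 48 libraries, so its values rest on very few reads.

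The 36 nuclear genes covered a narrower range, from 20.3 ± 2.01 TPM for *ucr-2.2* (a core protein of complex III) to 1062 ± 77.3 TPM for *cyc-2.1* (cytochrome *c*) in mock. Complex V genes were high as a group, with *hpo-18*, the worm counterpart of the mammalian epsilon subunit, at 1043 ± 135 TPM and *asb-2*, one of 2 genes for subunit b, lowest at 94.8 ± 7.98 TPM. Its paralog *asb-1* stood at 293 ± 23.1 TPM. The pair for subunit g was more unequal, with *asg-1* at 863 ± 55.6 TPM and *asg-2* at 172 ± 8.99 TPM. In complex IV the highest was *cox-7C* (966 ± 90.4 TPM) and the lowest *cox-4* (297 ± 20.2 TPM). Complex III was led by *isp-1*, the Rieske iron-sulfur protein (242 ± 15.2 TPM), complex II ran from *sdha-1*, the flavoprotein (34.7 ± 3.72 TPM), to *sdhd-1*, a membrane anchor (363 ± 21.9 TPM), and complex I from *nuo-3* (29.2 ± 3.47 TPM) to *nuo-6* (195 ± 9.75 TPM). Reads of the paralogs were shared out by the quantification, which may blur their levels.

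The mitochondrially encoded mRNAs were lower in K-NAA, and the nuclear encoded ones stayed close to their mock level. Of the 12 mitochondrial genes 10 were lower in K-NAA, 0 were higher and 2 did not pass (limma on log2(TPM + 0.5) with time point as a factor, adjusted p under 0.05 over 13813 genes), where 29.3% of all genes tested passed, 19.8% lower and 9.48% higher. The median change of the 12 was -0.40 on the log2 scale, beside 0.01 for the 36 nuclear genes and -0.02 for all genes. Of the nuclear genes 8 were higher, 5 lower and 23 did not pass, with all 36 changes between -0.14 and 0.14. When the libraries were rescaled by median ratios, 10 mitochondrial genes were again lower (median -0.36), but the nuclear genes became 0 lower and 10 higher, and over all genes the lower share of the calls went from 67.7% to 49.6%. The background also moved with the replicates, to 8.73% lower (1206 genes, with 1570 higher) without replicate 2 and to 23.4% lower (3234 genes, with 765 higher) without replicate 1, while 10 and 9 of the 10 mitochondrial calls passed. The number of nuclear genes called in each direction thus depended on the scaling, and the mitochondrial count did not.

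**Figure D1:**
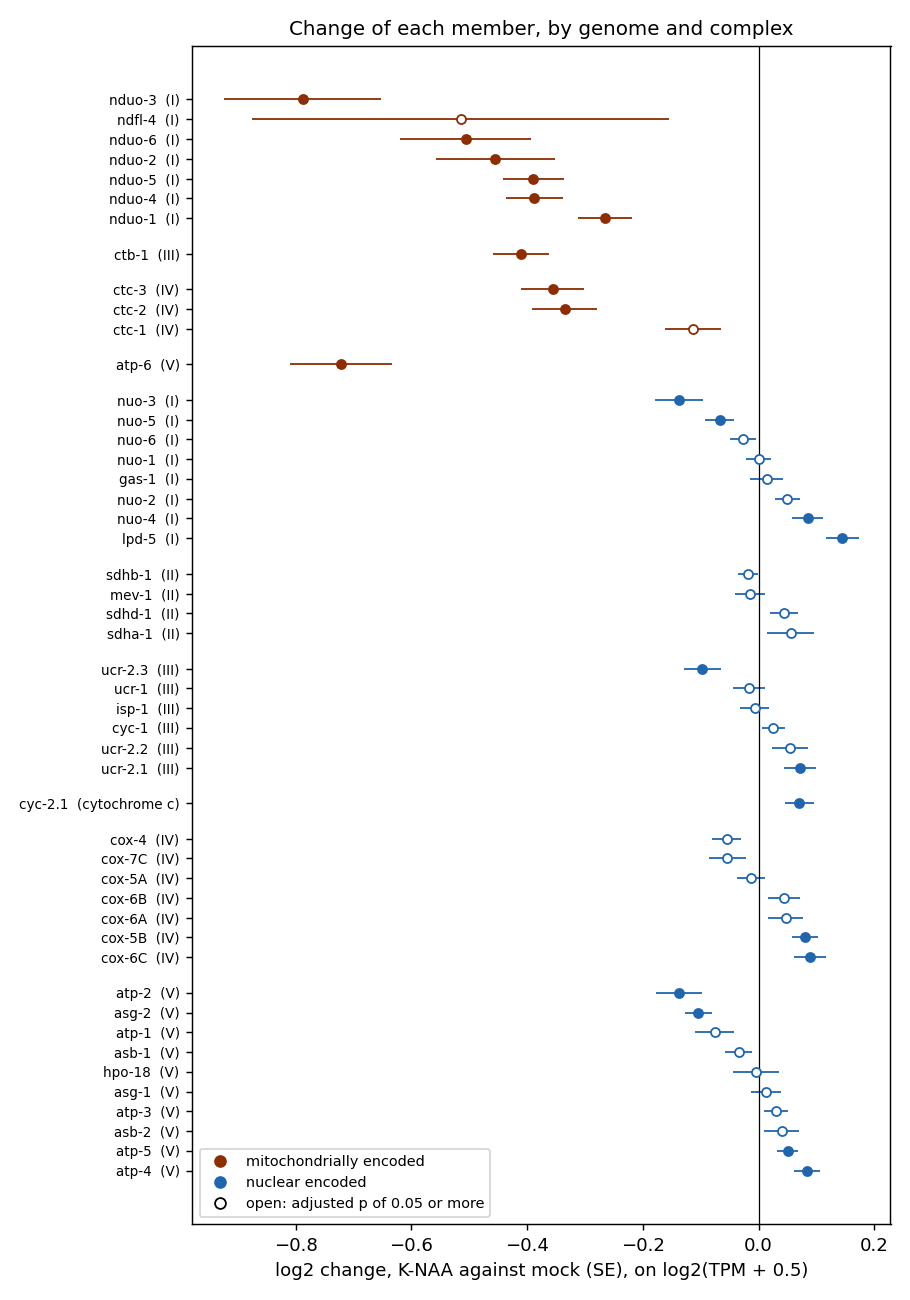
Log2 change of each of the 48 genes between K-NAA and mock (x axis, on log2(TPM + 0.5); point, estimate from limma; bar, SE; 24 libraries per condition), grouped on the y axis by genome and complex. Filled points passed at an adjusted p under 0.05: 10 of the 12 mitochondrial genes lie filled to the left of 0, and the nuclear genes lie between -0.14 and 0.14.

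The largest falls were those of *nduo-3* and *atp-6*. *atp-6* ranged from 240 to 636 TPM in mock (median 328) and from 113 to 268 TPM in K-NAA (median 221). In 20 of the 24 mock libraries it was above the highest K-NAA library, and 17 K-NAA libraries were below the lowest mock library. The ranges of *atp-6* thus overlapped, with most libraries of each group outside the range of the other. Its change was -0.72 ± 0.09 (SE, log2 scale; adjusted p = 3.39e-08), a fall to 0.607 of mock, with the K-NAA mean lower at 12 of 12 time points. *nduo-3*, encoding the ND3 subunit of complex I, went from a median of 7.94 TPM (4.09 to 15.1) to 4.85 TPM (2.02 to 10.6), a change of -0.79 ± 0.14 (adjusted p = 1.84e-05) that was also seen at 12 of 12 time points, although at this low level 16 K-NAA libraries stayed within the range of mock. The neighbours of *atp-6* on the genome fell less in estimate, *nduo-1* by 0.27 and *nduo-2* by 0.45, and no test of these differences between genes was made.

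Smaller falls were measured for the more abundant complex I genes. *nduo-4* had a median of 142 TPM (121 to 212) in mock and 107 TPM (92.6 to 149) in K-NAA, with 18 of 24 K-NAA libraries below the lowest mock library (change -0.39 ± 0.05, adjusted p = 8.22e-08). *nduo-5* went from 91.0 TPM (77.5 to 139) to 71.2 TPM (54.8 to 92.5), with 17 K-NAA libraries below all of mock (-0.39 ± 0.05, adjusted p = 2.57e-07). *nduo-1*, which codes for the ND1 subunit in the membrane arm, changed least of the genes that passed, from 251 TPM (187 to 347) to 198 TPM (163 to 280), by -0.27 ± 0.05 (adjusted p = 2.18e-05). All of these ranges overlapped, but the K-NAA values crowded at and below the lower end of mock.

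*nduo-6* was at 37.1 TPM (21.04 to 73.5) in mock and at 25.8 TPM (13.8 to 35.5) in K-NAA, where all 24 libraries were below the mock median (-0.51 ± 0.11, adjusted p = 0.000582). *nduo-2* had medians of 3.92 and 2.86 TPM (-0.45 ± 0.10, adjusted p = 0.000648). *nduo-2* did not pass with replicate 1 left out (adjusted p = 0.0721), and neither gene passed over CT1 to CT11 alone (adjusted p = 0.139 for *nduo-2* and 0.178 for *nduo-6*), a split added after the data were seen. For *ndfl-4* the estimate was -0.51 ± 0.36 (adjusted p = 0.306), and a change was not detectable at its depth.

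Of the complex III and IV genes, *ctb-1* fell from a median of 481 TPM (422 to 717) to 367 TPM (311 to 500), and 19 of 24 K-NAA libraries were below the lowest mock library, the most of any of the 12 genes. Its change was -0.41 ± 0.05 (adjusted p = 2.03e-08). *ctc-2*, which encodes the subunit that takes electrons from cytochrome *c*, went from 618 TPM (532 to 951) to 481 TPM (408 to 656), with 18 K-NAA libraries below all of mock (-0.33 ± 0.06, adjusted p = 1.19e-05). *ctc-3* went from 395 TPM (315 to 644) to 300.0 TPM (251 to 500), with 16 such libraries (-0.36 ± 0.05, adjusted p = 3.04e-06).

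*ctc-1*, the most abundant mitochondrial mRNA, had a median of 731 TPM (604 to 898) in mock and 651 TPM (567 to 907) in K-NAA, and its change of -0.11 ± 0.05 did not pass (adjusted p = 0.0746). Its highest K-NAA library lay above the highest mock library, which was true of no other mitochondrial gene. Even so its K-NAA mean was lower at 10 of 12 time points. Over the 12 genes, 9 had a lower K-NAA mean at 11 or more of the 12 time points, a pattern met by 13.1% of all genes tested. No mitochondrial gene had its 2 groups fully apart, which was the case, with K-NAA below mock, for 0.282% of all genes.

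Summed over the 12 genes, the mitochondrial mRNAs made up 3147 ± 446 TPM in mock (SD, n = 24; lowest 2630, median 2967, highest 4653) and 2496 ± 342 TPM in K-NAA (lowest 2082, median 2390, highest 3394), a difference of -20.7%. The 36 nuclear mRNAs summed to 13873 ± 570 and 13965 ± 367 TPM, a difference of 0.661%. The ratio of the mitochondrial to the nuclear sum, which no scaling of a library can alter, was 0.227 ± 0.0322 in mock and 0.179 ± 0.0265 in K-NAA. These sums are given without a test, since the genes were chosen with earlier results known.

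By complex, the mitochondrial sums stood at 0.604 of mock for complex V (1 gene), 0.753 for complex III (1 gene), 0.785 for complex I (7 genes) and 0.845 for complex IV (3 genes, pulled up by *ctc-1*). The nuclear sums of the same complexes were at 0.991, 0.995, 1.02 and 1.02 of mock, complex II at 1.01 and cytochrome *c* at 1.05. In each complex that draws on both genomes, the mitochondrial sum was thus lower against mock than the nuclear sum.

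**Figure D2:**
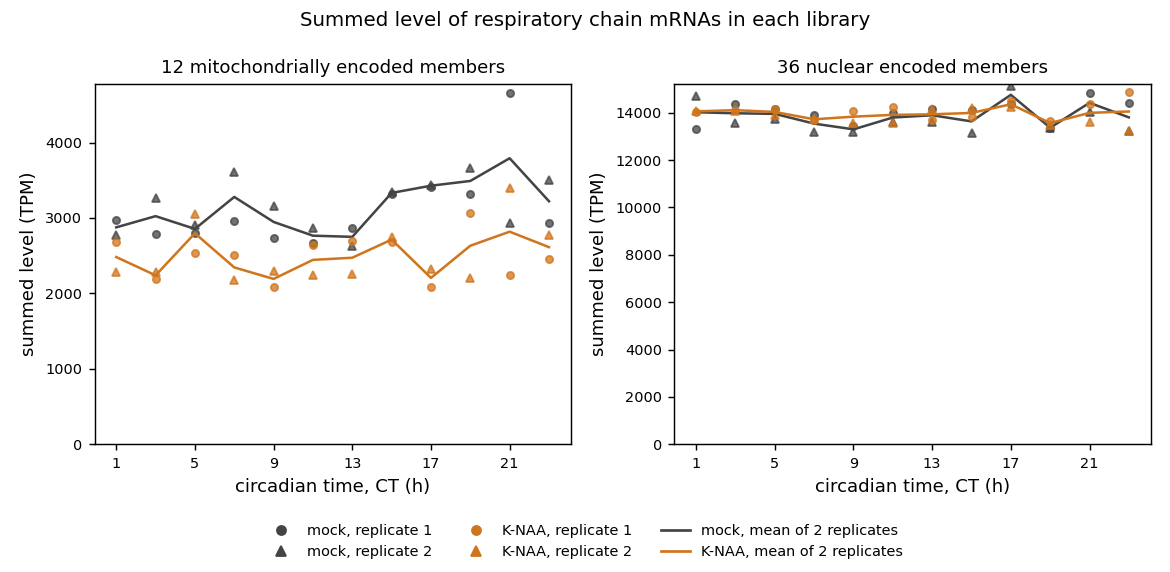
Summed level in TPM (y axes, from 0) of the 12 mitochondrial genes (left) and the 36 nuclear genes (right) in each of the 48 libraries against circadian time (x axes, h). Points are libraries, lines join the means of 2 replicates; the mitochondrial K-NAA mean lies below mock at all 12 time points, the nuclear one at 2.

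The mitochondrial sum was lower in K-NAA at each of the 12 time points, and at 9 of them both K-NAA replicates were below both mock replicates. The exceptions were CT5, CT13 and CT21. The ratio of K-NAA to mock was nearest to 1 at CT5 (0.980) and lowest at CT17 (0.643), where mock stood at 3412 and 3444 TPM and K-NAA at 2083 and 2328 TPM. The nuclear sum kept between 0.971 and 1.04 of mock at every time point. Split by time, the median log2 change of the 12 genes was -0.32 from CT1 to CT11 and -0.47 from CT13 to CT23.

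The mock library of CT21 replicate 1 stood apart. It had the highest mock value for 11 of the 12 mitochondrial genes, a sum of 4653 TPM against 2931 TPM in its partner, and the fewest genes above 0 of all 48 libraries (15165, where the others had up to 16095). Without it the mock mean was 3081 ± 317 TPM (n = 23) and the difference to K-NAA -18.99%. In K-NAA the library of CT21 replicate 2 was highest for 6 of the 12 genes, at a sum of 3394 TPM.

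Some tissue markers moved with the condition, where 29.3% of all genes tested passed, 9.48% higher and 19.8% lower. All 6 intestinal markers were above 0 in every library, and 3 of the 6 were higher in K-NAA and 0 lower. They summed to 8113 to 12469 TPM in mock (median 10426) and 11729 to 14639 TPM in K-NAA (median 12766), nearly all of it from the yolk protein genes *vit-2* (0.32 ± 0.03 on the log2 scale) and *vit-6* (0.31 ± 0.04). The largest change was that of the protease gene *asp-1* (0.44 ± 0.07), whereas *elt-2* (0.07 ± 0.05), *ges-1* (-0.05 ± 0.05) and *cpr-1* (-0.18 ± 0.14) did not pass. Of 8 germline and oocyte markers 1 was higher and 3 lower (mock sums of 4350 to 5215 TPM, K-NAA sums of 4271 to 5124 TPM), and of 6 body wall muscle markers 1 was higher and 0 lower. Of 4 pharynx markers 2 were higher and 0 lower (median 0.17), and of 5 neuronal markers 1 was lower, *snb-1* (-0.15 ± 0.02, adjusted p = 3.45e-07), and 0 higher. Of the 3 tested hypodermis markers 1 was higher, of 6 tested embryo markers 1 was lower, and of 6 tested sperm markers 0 passed. The part of these shifts in the fall of the mitochondrial mRNAs was not tested, and in whole worms fewer cells of a type and less RNA per cell cannot be told apart.

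**Figure D3:**
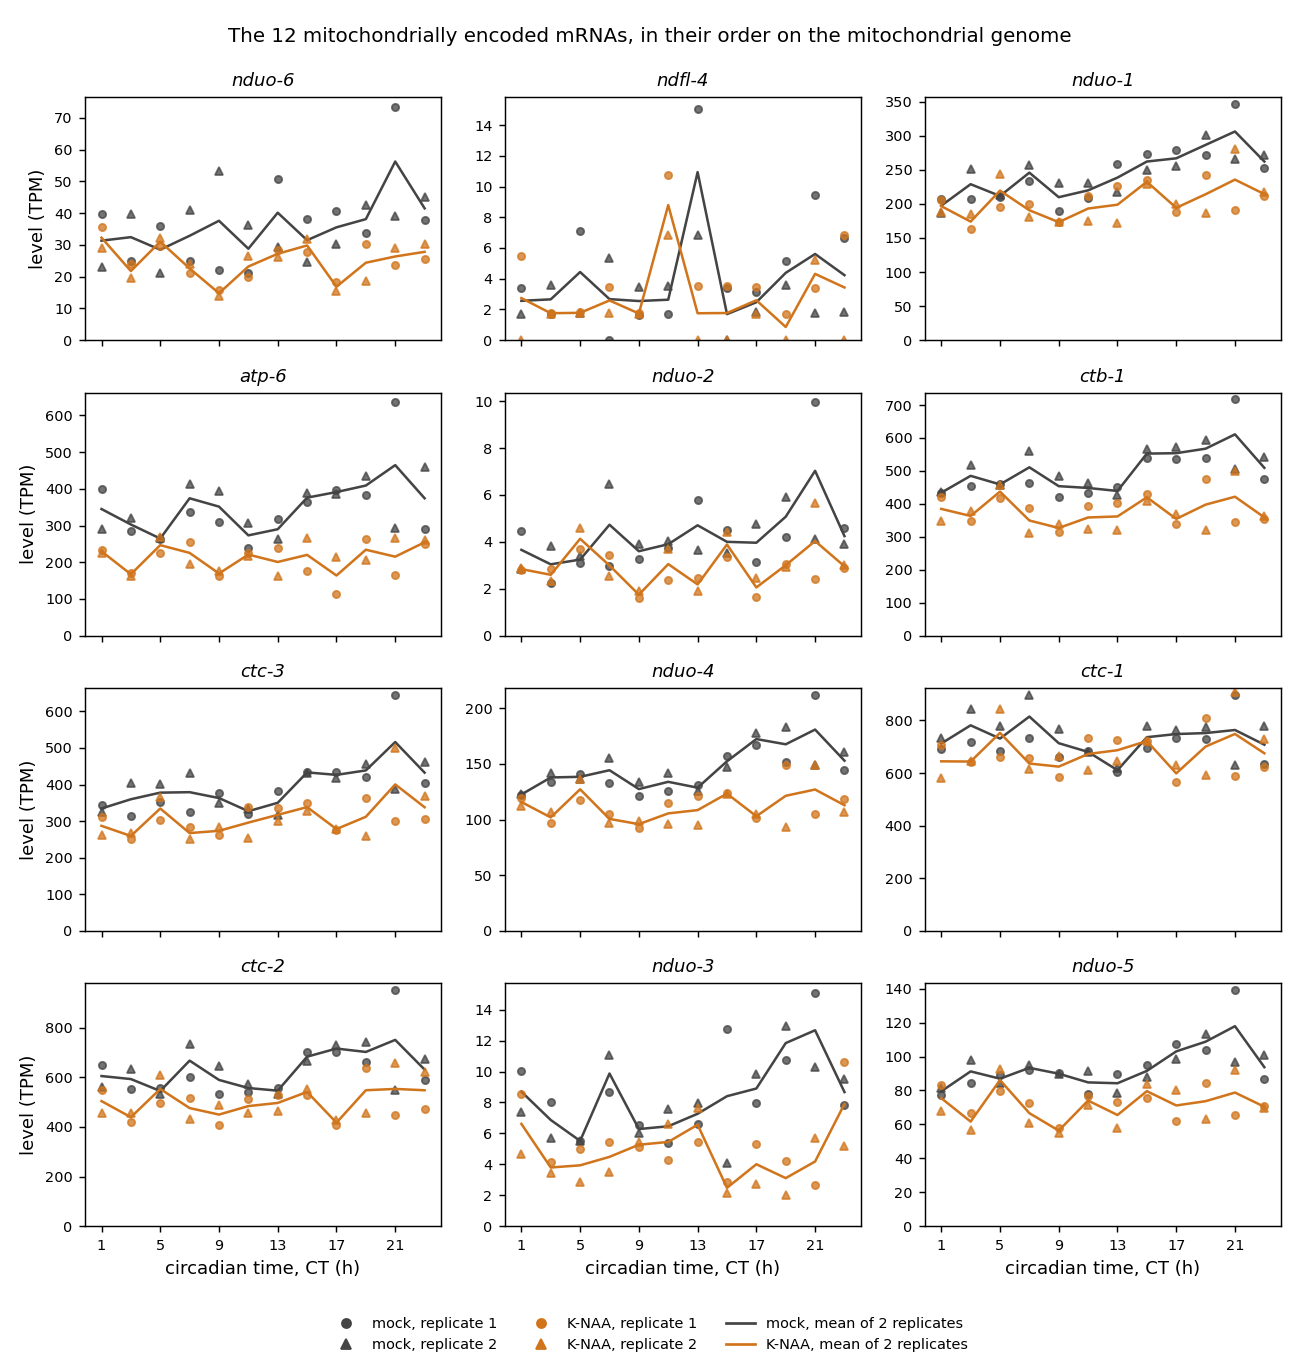
Level in TPM (y axes, from 0) of each of the 12 mitochondrial genes in all 48 libraries against circadian time (x axes, h), ordered as on the mitochondrial genome. Points are libraries and lines join the means of 2 replicates; K-NAA runs below mock for most genes, *ctc-1* overlaps, *ndfl-4* scatters down to 0, and the library of CT21 replicate 1 is the highest of mock for 11 genes.

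The mitochondrial mRNAs differed more between replicates than the nuclear ones, and often in the same direction. The SD between replicates of a time point had a median of 0.20 (log2 scale) over the 12 genes in mock and 0.21 in K-NAA, against 0.09 and 0.09 over the 36 nuclear genes, and 0.20 and 0.18 over all genes tested. At 7 of the 12 mock time points, 10 or more of the 12 genes were higher in the same replicate, and at 6 in K-NAA. The lowest spread in mock, 0.14, was shared by abundant genes such as *ctb-1* and *nduo-4*, and the highest was that of *ndfl-4* (1.23 in mock). In the nuclear set *sdhb-1*, the iron-sulfur subunit of complex II, was steadiest at 0.04.

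In mock animals 5 of the 12 mitochondrial mRNAs rose over the day. Circadian time, age of the animals, hours in constant cold and hours on the plates advanced together. Their effects on any trend or rhythm given here cannot be told apart. *nduo-1* read 207 and 187 TPM at CT1, 209 and 231 TPM at CT11, 272 and 301 TPM at CT19, and 253 and 272 TPM at CT23. Both late replicates were thus above both early ones. A straight line through its 24 mock libraries gave a rise of 0.50 ± 0.09 (SE, log2 scale) from CT1 to CT23 (limma, adjusted p = 0.00114). *ctc-3* rose by 0.45 ± 0.12 (adjusted p = 0.0155), *nduo-4* by 0.41 ± 0.10 (adjusted p = 0.00837), *ctb-1* by 0.34 ± 0.10 (adjusted p = 0.0261) and *nduo-5* by 0.34 ± 0.10 (adjusted p = 0.0306). With these 5 of 12 higher and 0 lower, against 5.57% and 3.42% of all genes (8.99% in either direction), 11 of the 12 slopes were positive. The count went to 0 with either replicate left out, to 1 without time point CT1, and to 3 after median ratio rescaling, without CT5, CT19 or CT21, and without the single mock libraries CT1 replicate 2 or CT21 replicate 1.

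Tissue markers moved over the same mock day, beside 5.57% of all genes that rose and 3.42% that fell. Of 6 body wall muscle markers 4 fell and 0 rose (median -0.39), and of 4 pharynx markers 2 fell and 0 rose (median -0.38). Of 6 intestinal markers 2 rose and 1 fell, of 8 germline and oocyte markers 2 rose and 0 fell, and of 3 tested hypodermis markers 1 fell. Of 5 neuronal, 6 tested sperm and 6 tested embryo markers 0 passed. Over the K-NAA day 125 of all 13813 genes tested fell and 136 rose (1.89% in either direction). There 1 of the 6 body wall muscle markers fell (median -0.32), as did 2 intestinal and 1 hypodermis marker. Of the 4 pharynx markers 0 passed there (median -0.21), as in the other lists. The part of these shifts in the rise of the mitochondrial mRNAs was not tested.

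Fitted instead with a 24 h cosine, 7 of the 12 mitochondrial genes passed at the threshold of 0.30 that the study used, beside 11.7% of all genes, and 0 passed at 0.05, beside 1.12%. These were *nduo-1*, *nduo-3*, *nduo-4*, *nduo-5*, *ctb-1*, *ctc-2* and *ctc-3*. Their fitted peaks lay between CT18.6 (*nduo-1*) and CT20.3 (*nduo-3*), and their peak-to-trough ranges between 0.28 (*nduo-5*) and 0.66 (*nduo-3*) on the log2 scale. Unadjusted, 8 of the 12 had p under 0.05, beside 14.3% of all genes, the eighth being *atp-6* (range 0.42, peak at CT19.6, adjusted p = 0.330).

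A line and a 24 h cosine cannot be told apart over a single day. With a linear drift in the model 0 of the 12 passed (adjusted p of 0.830 to 0.959 for the 7 genes), and 0 passed with either replicate left out or with a period of 20 h. The count fell to 3 without CT11, and to 4 without CT5, CT19 or CT21 or without the single mock libraries CT11 replicate 1, CT19 replicate 2 or CT21 replicate 1.

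In K-NAA animals no rhythm and no trend passed for any of the 48 genes. The lowest adjusted p for the rhythm was 0.764 among the mitochondrial genes and 0.590 among the nuclear ones (background 0.746% at 0.30), with 0 of 12 and 2 of 36 at an unadjusted p under 0.05, beside 7.28% of all genes. For the trend the lowest adjusted p was 0.262 and 0.0723 (background 1.89%), with 2 of 12 and 8 of 36 at an unadjusted p under 0.05, beside 13.9%. *nduo-1* read 205 and 188 TPM at CT1 and 212 and 217 TPM at CT23 in K-NAA. The largest K-NAA slope of the mitochondrial genes was that of *ctc-3* (0.32 ± 0.13, adjusted p = 0.262).

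The loss of the calls in K-NAA is not a shown difference. In the test of the difference itself, 0 of the 48 genes passed for the rhythm (adjusted p = 0.9999 for each) and 0 for the trend (lowest adjusted p = 0.556 among the mitochondrial genes and 0.346 among the nuclear ones), with backgrounds of 0.00724% and 0.159%. At an unadjusted p under 0.05 there were 0 genes for the rhythm, beside 4.83% of all genes, and 1, *ucr-2.3*, for the trend, beside 9.3%. The slope was smaller in K-NAA than in mock for 11 of the 12 mitochondrial genes, by a median of -0.31, and for *ctb-1*, which had the lowest p of them, by -0.31 ± 0.16.

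**Figure D4:**
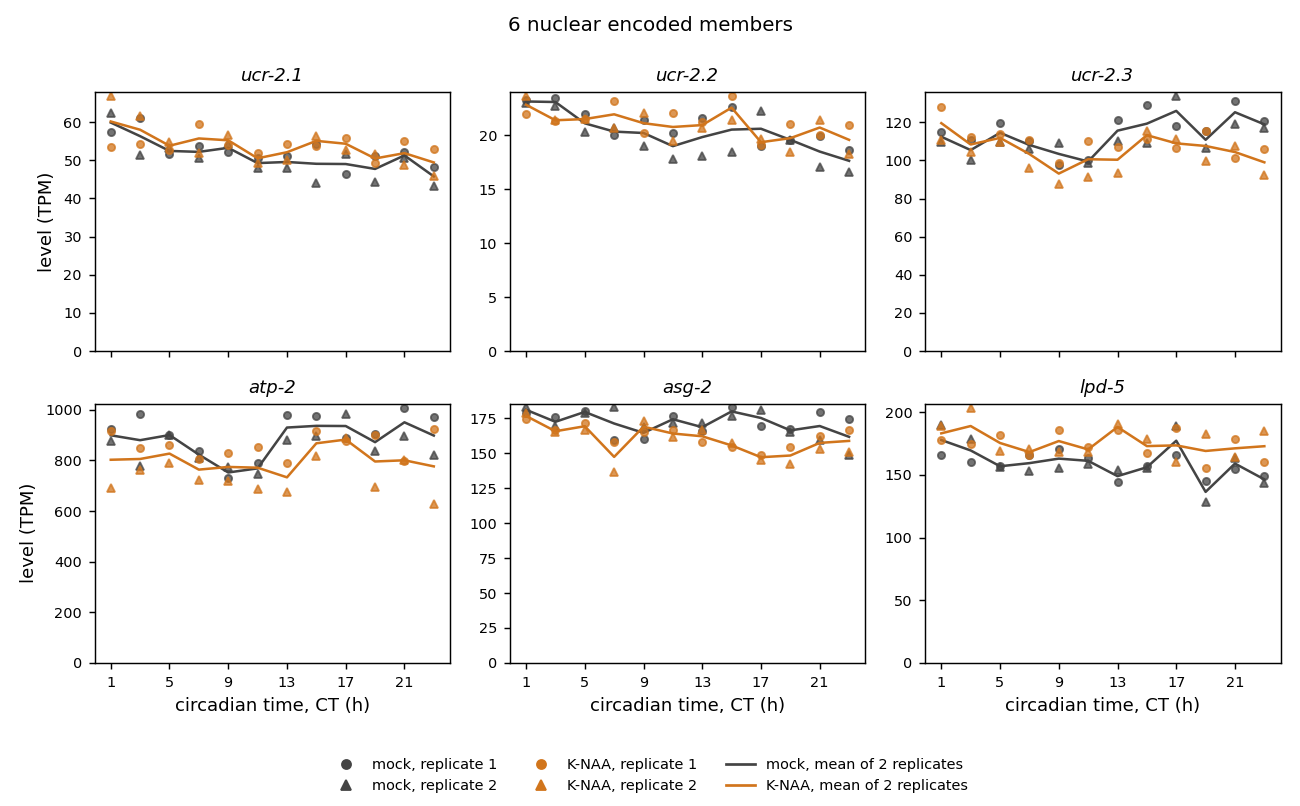
Level in TPM (y axes, from 0) of 6 nuclear genes in all 48 libraries against circadian time (x axes, h); points are libraries and lines join the means of 2 replicates. *ucr-2.1* and *ucr-2.2* decline over the day in mock, *ucr-2.3* does not, *atp-2* and *asg-2* lie lower in K-NAA and *lpd-5* higher, all within overlapping ranges.

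Among nuclear complex I genes 2 rose and 2 fell in K-NAA. *lpd-5*, the worm counterpart of the mammalian accessory subunit NDUFS4, rose the most of all 36, from a median of 157 TPM (128 to 190) to 176 TPM (155 to 203), by 0.14 ± 0.03 (adjusted p = 0.000126), and 23 of 24 K-NAA libraries were at or above the mock median. *nuo-4* rose by 0.08 ± 0.03 (adjusted p = 0.0127). *nuo-3* fell by 0.14 ± 0.04 (adjusted p = 0.00946), from a median of 28.6 TPM (21.6 to 36.03) to 26.6 TPM (21.9 to 30.4), and *nuo-5*, the worm counterpart of NDUFS1, by 0.07 ± 0.02 (adjusted p = 0.0333). Both groups overlapped widely for each of these genes. Of the 4 complex II genes 0 passed, with changes between -0.02 (*sdhb-1*) and 0.06 (*sdha-1*).

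In complex III the estimates of the 3 genes for core protein 2 differed in sign, and no test between these genes was made. *ucr-2.3*, the most abundant of them at a mock median of 110.5 TPM (97.7 to 134), fell to 107 TPM (87.8 to 128), by 0.10 ± 0.03 (adjusted p = 0.0168). *ucr-2.1* went from 51.3 TPM (43.4 to 62.3) to 53.6 TPM (45.8 to 66.8), a rise of 0.07 ± 0.03 that was only just called (adjusted p = 0.0498) and was lost in 46 of 73 alternative settings. *ucr-2.2* stood at 20.1 and 21.3 TPM and did not pass (adjusted p = 0.188). *cyc-2.1*, for cytochrome *c*, rose by 0.07 ± 0.02 (adjusted p = 0.0277), from 1041 TPM (958 to 1210) to 1108 TPM (1022 to 1220).

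The complex IV genes *cox-5B* and *cox-6C* rose by 0.08 ± 0.02 (adjusted p = 0.00544) and 0.09 ± 0.03 (adjusted p = 0.0129), and the other 5 did not pass. With replicate 2 left out neither rise passed (adjusted p = 0.441 and 0.564). In complex V, *atp-2*, the catalytic beta subunit, fell by 0.14 ± 0.04 (adjusted p = 0.00739), from a median of 892 TPM (730 to 1006) to 803 TPM (628 to 925), where *atp-1*, the alpha subunit, changed by -0.08 ± 0.03 (adjusted p = 0.0900). *asg-2* fell by 0.10 ± 0.02 (adjusted p = 0.000524), from 173 TPM (149 to 183) to 162 TPM (137 to 179), while its paralog *asg-1* did not pass (0.01 ± 0.03). *atp-4* and *atp-5* rose by 0.08 ± 0.02 (adjusted p = 0.00355) and 0.05 ± 0.02 (adjusted p = 0.0331). Neither subunit b gene passed, with changes of -0.03 ± 0.02 for *asb-1* and 0.04 ± 0.03 for *asb-2*.

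These nuclear changes were small beside the mitochondrial ones, and many were unstable. With replicate 2 left out 4 of the 13 calls passed, and over CT1 to CT11 alone 1 passed, that of *lpd-5*. After median ratio rescaling 8 of the 13 passed, and 0 nuclear genes were lower, so no fall was kept. *lpd-5* passed in each of the 73 settings tried.

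Over the day in mock, 2 of the 36 nuclear genes had a trend, a share below the 8.99% of all genes with one in either direction (3.42% lower), and both fell: *ucr-2.2* by 0.29 ± 0.07 (adjusted p = 0.0123) and *ucr-2.1* by 0.28 ± 0.06 (adjusted p = 0.00802). *ucr-2.1* read 57.4 and 62.3 TPM at CT1 and 48.2 and 43.4 TPM at CT23, so the last pair was below the first. In K-NAA their slopes were -0.16 ± 0.06 and -0.20 ± 0.06 and did not pass. Without CT1 neither mock trend passed, and without CT23 1 of them did. The 24 h cosine passed at 0.30 for 3 of 36 nuclear genes, below the background of 11.7%: *ucr-2.3* (range 0.21, peak at CT19.6, adjusted p = 0.168), *atp-2* (range 0.20, peak at CT20.3, adjusted p = 0.228) and *atp-1* (range 0.21, peak at CT21.1, adjusted p = 0.230). None of the 3 passed after median ratio rescaling or with a linear drift.

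Genes around the respiratory chain, taken from lists by function, changed by small amounts in the median of each list. Of 24 further respiratory subunit genes 6 were higher in K-NAA and 3 lower, with a median of 0.01, where 9.48% of all genes were higher and 19.8% lower. The 3 of smallest p were *Y69A2AR.18* (-0.08), *Y63D3A.7* (0.15) and *F59C6.5* (0.08). Of 10 tested assembly factors 1 was higher, the copper chaperone gene *sco-1* (0.18 ± 0.03, adjusted p = 5.03e-05), and 5 were lower, among them *nuaf-3* (-0.16) and *bcs-1* (-0.10), the latter needed to insert the Rieske protein. Of 18 genes of the TCA cycle and pyruvate dehydrogenase 1 was higher (*sucl-1*, 0.07) and 4 were lower, led by *idha-1* (-0.13) and *sucl-2* (-0.11).

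The machinery that makes and reads mitochondrial RNA also had small medians, while single genes moved further. Of 8 tested genes of mitochondrial gene expression 2 were lower and 0 higher: *tsfm-1*, a translation elongation factor, went from 60.1 to 51.4 TPM (-0.22 ± 0.03, adjusted p = 1.54e-07), and *polg-1*, the mitochondrial DNA polymerase, from 11.3 to 10.1 TPM (-0.15 ± 0.04, adjusted p = 0.00807). *rpom-1*, the mitochondrial RNA polymerase, did not pass (adjusted p = 0.517). Of 71 mitochondrial ribosomal protein genes 12 were higher and 19 lower, with a median of -0.02 and changes from -0.25 to 0.21. Over all genes tested 29.3% passed in either direction, 9.48% higher and 19.8% lower. Of 16 tested import and carrier genes 0 were higher and 3 lower, *timm-17B.1* with the smallest p (-0.21 ± 0.03). The medians of all 6 lists lay between -0.09 and 0.01, beside -0.40 for the 12 mitochondrial genes.

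For the series as a whole, every library sums to 1000000 TPM, so read depth is not known from the values, and between 15165 and 16095 genes were above 0 in each library. The *nhr-23* mRNA itself had a mean of 33.99 ± 3.16 TPM among mock libraries and of 31.6 ± 1.86 TPM among K-NAA libraries. Its level passed as lower in K-NAA (-0.10 on the log2 scale, adjusted p = 0.0226). The degron acts on the protein, so this mRNA does not check the labels.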

How the data were processed

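RNA-seq of polyadenylated whole-worm RNA was quantified by the authors with Salmon against *C. elegans* mRNA sequences (WS284), and the deposited tables give TPM, with no read counts. The submitters' processing notes also name ce10. The libraries were strand-specific per the study's methods. The tables further hold the authors' rhythm statistics (p-values, q-values, periods, lags, amplitudes and replicate scores from BioCycle), which were not used. TPM is a share of each library, so a high gene lowers the others, and precision at low levels is limited by a depth that the values do not give.

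Values were analysed as log2(TPM + 0.5) with limma 3.58.1 in R 4.3.3, with variances moderated along the mean level, over the 13813 of 19885 genes whose mean reached 0.25 TPM, and Benjamini-Hochberg adjustment over all of them. Fold changes on this scale understate those of low genes. The 7 tests were the level (K-NAA against mock, time point as a factor), a 24 h cosine and a linear slope over 22 h in each condition, and the difference of each between conditions, all two-sided. The thresholds were an adjusted p of 0.05, and for the rhythm also the study's 0.30. The tests were also run on simulated data with independent noise for each gene. Such data hold no shared movement of genes between replicates, so they cannot check the tests under it. Named were the genes that passed any test, the highest and lowest gene of each complex and genome, the paralog sets, and up to 3 called genes of each other list. The genes and lists were chosen with earlier results of these data known.

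The replicates are biologically independent per the study's methods. Deviations were little correlated between same-numbered mock and K-NAA libraries: of 12 correlations (-0.07 to 0.18, median 0.0017), 1 was above 0.1. These values cannot show whether a replicate number marks a series within 1 condition. The scaling factor by median ratios averaged 0.982 in replicate 1 and 1.04 in replicate 2 of mock, and 0.992 and 0.985 in K-NAA. No 2 libraries were identical. Alternatives were another pseudocount, filter, scaling, period or model, a replicate block, and leaving out each replicate, time point and library.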

Additional observations from a re-analysis of the deposited data

How the results depend on the processing

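Over the alternatives, 1244 of 1317 values of counts and sums equalled the main value or lay near it, and many of these were counts of 0 in both. Of 2491 values of single genes 2221 still passed, and 270 calls were lost. Among level and trend estimates 0 changed sign. The range of a rhythm is always positive, so for the rhythm this could not occur. The count of mitochondrial genes lower in K-NAA kept within 8 to 11 of 12 throughout. The log2 change of their sum, or of their mean log2 level as 1 alternative, kept within -0.44 to -0.30. Leaving out replicates, time points or single libraries gave 2 to 5 nuclear genes lower (3 without CT21 or CT23, 2 without replicate 2) and 2 to 9 higher (5 without CT7, CT9 or CT15, 2 without replicate 2). In the mock rhythm at 0.30 it gave 0 to 9 mitochondrial and 0 to 6 nuclear genes, and at 0.05 0 to 2 mitochondrial genes. For the mock trend it gave 0 to 6 mitochondrial and 0 to 3 nuclear genes, and in K-NAA 0 to 1 nuclear gene for the rhythm and for the trend.

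The nuclear rhythm count in mock went to 0 without CT9, CT11 or CT21, to 1 without CT7 or the mock libraries CT9 replicate 1, CT9 replicate 2, CT11 replicate 1, CT11 replicate 2 or CT21 replicate 1, to 5 without CT17 replicate 2, CT19 replicate 1 or CT19 replicate 2, and to 6 without CT19, CT23 or CT23 replicate 2. By setting, median ratio rescaling gave 3 mitochondrial trends, 0 nuclear genes lower and 0 nuclear rhythms. A period of 20 h, a linear drift and time points as a factor each gave 0 mitochondrial and 0 nuclear rhythms in mock, and the factor gave 1 mitochondrial gene in K-NAA. A filter at a mean of 1 TPM gave 1 mitochondrial rhythm at 0.05 and 5 nuclear rhythms at 0.30, and a period of 28 h gave 2 mitochondrial rhythms at 0.05. Restricting to CT1 to CT11 gave 0 nuclear genes lower and 1 higher, and to CT13 to CT23 3 higher. The causes of these shifts were not tested, except that leaving out samples or times lowers the number of libraries.

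With a replicate block, the nuclear rhythm count in mock was 5 in place of 3, the nuclear trend count in K-NAA was 1 in place of 0, and the mitochondrial counts were 10 lower, 7 rhythms and 5 trends, as without it. The low correlations between same-numbered mock and K-NAA libraries do not show what the numbers stand for within a condition. The splits by time and the fit without a variance trend were added after the data were seen.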
